A study of Mus musculus with 6 samples.

Results

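Nrg3 and Erbb4 encode a ligand and its receptor. Neuregulin 3 is a membrane-anchored ligand with an EGF-like domain, and ErbB4 is the receptor tyrosine kinase that binds it. In cortex the ligand is known mainly from excitatory neurons, and the receptor mainly from inhibitory interneurons, cells that migrate in from the ventral forebrain. Both genes are very long, so most of each nuclear transcript is intron. PTBP1 and its neuronal relative PTBP2 bind pyrimidine-rich RNA, much of it intronic, and regulate splicing. Crosslinked fragments inside a locus can therefore report contact of either protein with the unspliced transcript, although exons and introns were not assigned here.

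The members were the distinct read intervals (unique chromosome, strand, start and end) whose midpoint lay in either locus, on the minus strand, which is the strand of both genes. The limits in mm9 were chromosome 14 from 39.19 to 40.29 Mb for Nrg3 and chromosome 1 from 68.09 to 69.15 Mb for Erbb4. Over the 6 libraries 16956 of 940882 distinct intervals fell inside (1.80%), 15185 in Nrg3 and 1771 in Erbb4. Nrg3 was picked partly because 2 of its windows were among the fullest for PTBP2 in wild-type cortex. Its PTBP2 wild-type values are therefore given as a description and support nothing. Of the 16956 intervals, 16597 were listed in 1 library, 344 in 2, 14 in 3 and 1 in 4.

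The libraries are CLIP-seq, in which ultraviolet light (400 mJ/cm2) joins protein to RNA before immunoprecipitation, of nuclear fractions of neocortex on postnatal day 1, from mice of BL6/129Sv background. FLAG antibody was used on Rosa-PTBP1; PTBP2 loxp/loxp; Emx1-Cre cortex, on Rosa-PTBP1; Emx1-cre cortex, and on wild-type (WT) cortex in 2 replicates. PTBP2 antibody was used on Rosa-PTBP1; Emx1-cre cortex and on WT cortex. Rosa-PTBP1 is a transgene for FLAG-tagged PTBP1, and loxp alleles of PTBP2 can be deleted by the recombinase. Emx1-cre is active in the dorsal forebrain lineage that gives cortical excitatory neurons and not in ventrally derived interneurons. Both transgenic genotypes carry it, and neither FLAG-PTBP1 nor the PTBP2 deletion is then directed to interneurons. FLAG libraries of WT cortex, which lacks the tagged protein, give the background. The libraries are called FLAG loxP, FLAG Rosa-PTBP1, PTBP2 Rosa-PTBP1, PTBP2 WT, and FLAG WT replicates 1 and 2. The labels do not say whether samples came from single or pooled animals, or whether the FLAG WT replicates are separate animals. Apart from FLAG WT each group was 1 library, so no difference below has a replicate check, and intervals in brackets cover counting error only.

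Depth differed, with 265953 distinct intervals in FLAG loxP, 351602 in FLAG Rosa-PTBP1, 74416 in PTBP2 Rosa-PTBP1 and 155447 in PTBP2 WT, against 88327 and 26665 in FLAG WT replicates 1 and 2. Sites, made by joining touching or overlapping intervals on a strand, numbered 34912, 43026, 22637 and 27469 in the same order, against 73519 and 9567. FLAG WT replicate 1 stood apart: 85.8% of its sites were a single interval, and it listed 4.26 lines per distinct interval. PTBP2 Rosa-PTBP1 was nearly empty on 7 chromosomes and FLAG Rosa-PTBP1 on 1, neither of them 1 or 14, which raises the shares of these libraries elsewhere. Locus ratios and window shares on chromosomes filled in both libraries are therefore given where they differ. The sequencing runs named in the reads were WA047 for FLAG loxP, FLAG Rosa-PTBP1 and FLAG WT replicate 2, and XA041 and XB028 for both PTBP2 libraries and FLAG WT replicate 1. The lists from XA041 and XB028 are headed as combined data, and those from WA047 as significant reads. Antibody and run cannot be told apart between FLAG-PTBP1 and PTBP2.

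The ligand gene was densely bound. Nrg3 held 4944 distinct intervals in FLAG loxP (1.86% of the library), 5420 in FLAG Rosa-PTBP1 (1.54%), 1059 in PTBP2 Rosa-PTBP1 (1.42%) and 3518 in PTBP2 WT (2.26%), against 549 (0.622%) and 47 (0.176%) in FLAG WT replicates 1 and 2. All 4 PTBP libraries thus lay above both background libraries by share of intervals. Merged into sites, these were 358, 454, 191 and 367, against 443 and 11. Per 1000 sites of each library Nrg3 held 10.3, 10.6, 8.44 and 13.4, against 6.03 and 1.15, in the same order of groups. How many other loci of the genome show this order was not counted, and the PTBP2 WT value is the one the rule used. The order is therefore a description.

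The receptor gene held far fewer. Erbb4 held 298 distinct intervals in FLAG loxP (0.112% of the library), 292 in FLAG Rosa-PTBP1 (0.0830%), 442 in PTBP2 Rosa-PTBP1 (0.594%) and 488 in PTBP2 WT (0.314%), against 254 (0.288%) and 20 (0.0750%) in FLAG WT replicates 1 and 2. By share of intervals both FLAG-PTBP1 libraries therefore lay between the background libraries, within counting error of replicate 2. Both PTBP2 libraries lay above them, but PTBP2 WT was within counting error of replicate 1 (log2 0.13, -0.10 to 0.35). How many other loci show this order was not counted. Sites numbered 58, 55, 95 and 87, against 218 and 7. Per 1000 sites these were 1.66, 1.28, 4.20 and 3.17, against 2.97 and 0.732. By sites FLAG loxP was above replicate 2 beyond counting error (log2 1.18, 0.05 to 2.56). FLAG Rosa-PTBP1 was not (log2 0.80, -0.33 to 2.19). In both loci no library listed an interval on the opposite strand, although the GRCm38 annotation places the antisense gene Nrg3os beside Nrg3. These are bulk samples, in which fewer cells of a type and less RNA per cell cannot be told apart.

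**Figure D1:**
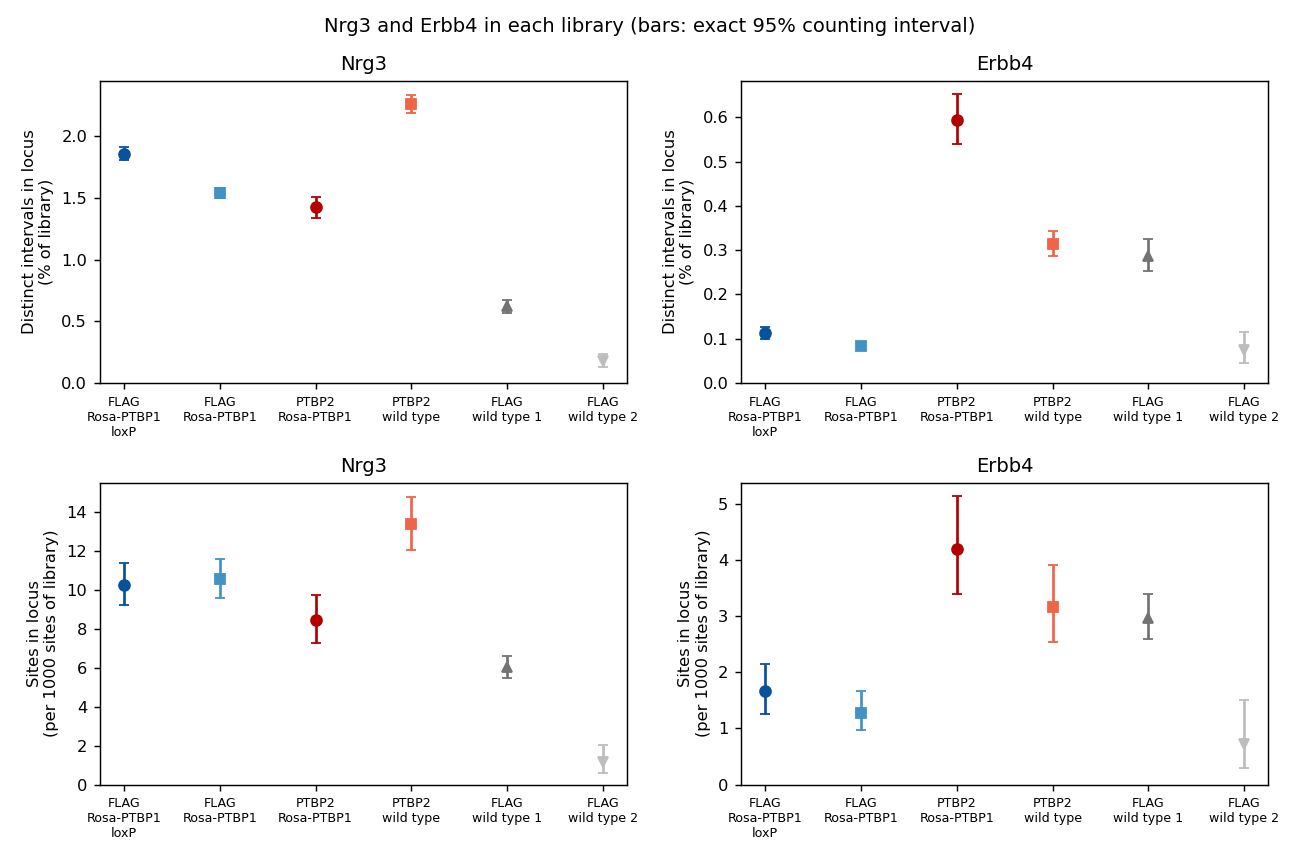
Level of each locus in the 6 libraries: the upper row plots distinct intervals as a percentage of the library and the lower row sites per 1000 sites, with exact 95% counting intervals. Nrg3 is higher in the 4 PTBP libraries than in both FLAG WT libraries; Erbb4 in FLAG loxP and FLAG Rosa-PTBP1 (0.112% and 0.0830%) lies between the FLAG WT libraries (0.288% and 0.0750%).

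Counted against each other, the pair gives a value that needs no library total, so empty chromosomes do not move it. For every 100 distinct intervals in Nrg3, Erbb4 held 6.03 in FLAG loxP (95% interval 5.34 to 6.78), 5.39 in FLAG Rosa-PTBP1 (4.77 to 6.06), 41.7 in PTBP2 Rosa-PTBP1 (37.3 to 46.7) and 13.9 in PTBP2 WT (12.6 to 15.3). The FLAG WT libraries held 46.3 (39.7 to 53.8) and 42.6 (23.9 to 73.2). Receptor signal relative to ligand signal was thus low with FLAG-PTBP1 and high in PTBP2 Rosa-PTBP1, whose value overlapped the background. The PTBP2 WT value has the Nrg3 signal that the rule used as its denominator, so its place in this order is a description from which nothing is read. Counted in sites these were 16.2, 12.1, 49.7 and 23.7 sites of Erbb4 per 100 of Nrg3, with FLAG Rosa-PTBP1 again lowest among the PTBP libraries.

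**Figure D2:**
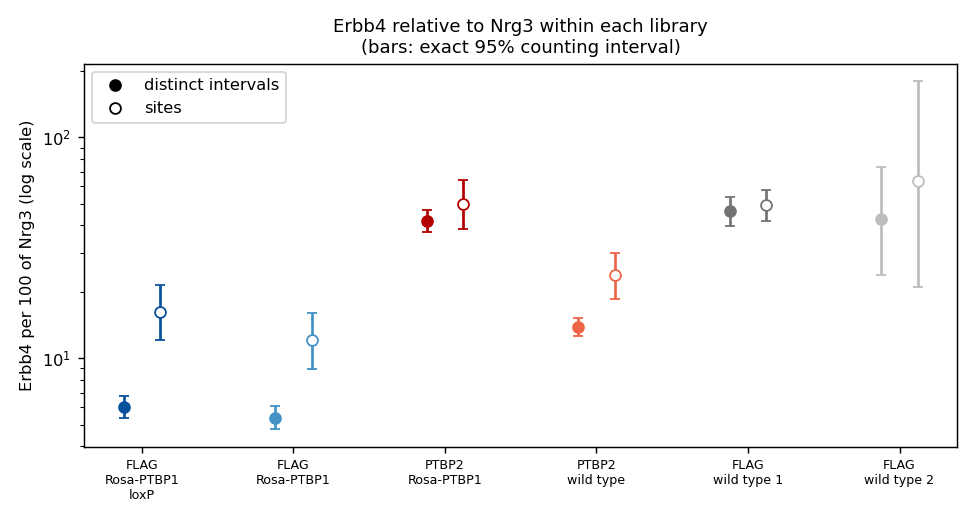
Erbb4 per 100 of Nrg3 in each library on a log axis, from distinct intervals (filled) and from sites (open), with exact 95% counting intervals. FLAG loxP and FLAG Rosa-PTBP1 sit at 6.03 and 5.39 intervals, PTBP2 Rosa-PTBP1 at 41.7 and PTBP2 WT at 13.9, and FLAG WT replicates 1 and 2 at 46.3 and 42.6.

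The first comparison asks how far FLAG-PTBP1 in each locus rose above the background of the antibody and procedure. By share of sites Nrg3 was 1.93-fold higher in FLAG Rosa-PTBP1 than in the summed FLAG WT libraries (log2 0.95, 0.76 to 1.14). It was 1.75-fold higher than replicate 1 alone and 9.18-fold higher than replicate 2, which came from the same run. These folds rest on background libraries that themselves differed 5.24-fold in Nrg3. On filled chromosomes the Nrg3 value against the sum was log2 0.88. Erbb4 was 2.12-fold lower in FLAG Rosa-PTBP1 than in the summed background (log2 -1.08, -1.54 to -0.65, and -1.16 on filled chromosomes). That value rests on replicate 1: without it, Erbb4 was 1.75-fold higher than replicate 2 with an interval that included no difference (log2 0.80, -0.33 to 2.19).

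The 100-kb windows of each locus were then read against all minus-strand and plus-strand windows of the genome holding 20 or more sites in both arms together. Of 1411 such windows, 37.1% had a share of sites at least 2-fold higher in FLAG Rosa-PTBP1 than in FLAG WT, and 16.2% at least 2-fold lower (36.5% and 14.5% of 1372 on filled chromosomes). In Nrg3 3 of 9 windows were higher and 0 lower, near the genome-wide share. The highest lay from 40.1 to 40.2 Mb (116 sites against 86, 2.60-fold) and from 39.5 to 39.6 Mb (24 against 18, 2.57-fold). The lowest lay from 39.8 to 39.9 Mb (10 against 22, 1.14-fold lower) and from 39.7 to 39.8 Mb (40 against 47, 1.64-fold higher). In Erbb4 0 of 5 windows were higher and 2 lower, from 68.7 to 68.8 Mb (2 against 27, 6.99-fold lower) and from 68.2 to 68.3 Mb (3 against 22, 3.80-fold lower). The window from 69.1 to 69.2 Mb reaches 50 kb past the 5′ limit and counts what is listed there, in this and the later comparisons. The windows nearest the 5′ limit held 26 sites against 33 from 69.1 to 69.2 Mb (1.52-fold higher), 16 against 51 from 69 to 69.1 Mb (1.65-fold lower) and 11 against 27 from 68.9 to 69 Mb (1.27-fold lower), all short of 2-fold.

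The libraries differed throughout in stacking, the piling of several distinct intervals into 1 site. Over the whole genome stacked sites, of 5 or more intervals, made up 50.3% of sites in FLAG loxP, 56.3% in FLAG Rosa-PTBP1, 13.1% in PTBP2 Rosa-PTBP1 and 35.1% in PTBP2 WT, against 0.547% and 8.96% in FLAG WT replicates 1 and 2. In Nrg3 they numbered 248 of 358 Nrg3 sites in FLAG loxP (69.3%), 308 of 454 in FLAG Rosa-PTBP1 (67.8%), 68 of 191 in PTBP2 Rosa-PTBP1 (35.6%) and 228 of 367 in PTBP2 WT (62.1%). They numbered 1 of 443 in FLAG WT replicate 1 (0.226%) and 6 of 11 in replicate 2 (54.5%), so in Nrg3 replicate 1 lay below all 4 PTBP libraries and replicate 2 did not. In Erbb4 they numbered 33 of 58 (56.9%), 31 of 55 (56.4%), 23 of 95 (24.2%) and 33 of 87 (37.9%) in the PTBP libraries, against 0 of 218 and 0 of 7 in FLAG WT. In FLAG loxP, FLAG Rosa-PTBP1 and PTBP2 WT the Erbb4 shares were near those of the whole library, so the contrast with FLAG WT is not particular to the gene. FLAG-PTBP1 held stacked sites in Erbb4 although its share of all intervals there did not exceed both background libraries. The fullest Nrg3 site held 452 intervals in FLAG loxP, 281 in FLAG Rosa-PTBP1, 63 in PTBP2 Rosa-PTBP1 and 165 in PTBP2 WT, against 5 and 7. FLAG WT replicate 1 had more distinct intervals in all than PTBP2 Rosa-PTBP1, 88327 against 74416, while replicate 2 had fewer than any other library and 7 sites in Erbb4.

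PTBP2 in WT cortex was set against the same background libraries. Because the rule used PTBP2 WT in Nrg3, its 2.45-fold higher share of sites there (log2 1.29, 1.09 to 1.49) is a description. The summed background again rests on FLAG WT replicate 1; against replicate 2 alone the value was 11.6-fold. Erbb4, which was not chosen on this measure, was 1.17-fold higher (log2 0.23, -0.15 to 0.59), not detectably above the sum. Against replicate 2 alone it was 4.33-fold higher (log2 2.11, 1.01 to 3.47), and against replicate 1 alone 1.07-fold. Genome-wide, 27% of 1155 windows were at least 2-fold higher in PTBP2 WT and 19.7% at least 2-fold lower. Erbb4 had 1 of 5 windows higher, from 68.9 to 69 Mb (23 sites against 27, 2.58-fold), and 0 lower. The next was from 69 to 69.1 Mb (27 against 51, 1.60-fold), and the lowest were from 68.2 to 68.3 Mb (4 against 22, 1.82-fold lower) and from 68.7 to 68.8 Mb (8 against 27, 1.12-fold lower). Nrg3 had 6 of 9 windows higher, led by 40.1 to 40.2 Mb (114 against 86, 4.01-fold) and 39.5 to 39.6 Mb (18 against 18, 3.02-fold), from which nothing is read. Its lowest were from 39.8 to 39.9 Mb (5 against 22, 1.45-fold lower) and from 39.7 to 39.8 Mb (25 against 47, 1.61-fold higher).

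FLAG loxP was compared with FLAG Rosa-PTBP1 to ask whether FLAG-PTBP1 contacts differ where PTBP2 can be deleted. Neither gene differed by share of sites beyond counting error. Nrg3 held 358 sites against 454 (log2 -0.04, -0.25 to 0.16) and Erbb4 58 against 55 (log2 0.38, -0.18 to 0.94). On filled chromosomes these were log2 0.05 in Nrg3 and 0.47 in Erbb4, with intervals that still included no difference. By distinct intervals, which are not independent within a site, both were slightly higher with loxP alleles (Nrg3 log2 0.27, Erbb4 log2 0.43). Genome-wide 6.27% of 861 windows were at least 2-fold higher in FLAG loxP and 11.6% at least 2-fold lower (4.08% and 10.6% of 834 on filled chromosomes), and none of the 8 Nrg3 or 3 Erbb4 windows was either. The Nrg3 windows ranged from 1.80-fold lower from 39.4 to 39.5 Mb (14 sites against 31) and 1.24-fold lower from 39.6 to 39.7 Mb (19 against 29) to 1.12-fold higher from 40.1 to 40.2 Mb (105 against 116) and 1.23-fold higher from 39.5 to 39.6 Mb (24 against 24). Those of Erbb4 were 1.68-fold higher from 68.9 to 69 Mb (15 against 11), 1.39-fold from 69 to 69.1 Mb (18 against 16) and 1.14-fold from 69.1 to 69.2 Mb (24 against 26). The ratio of Erbb4 to Nrg3 intervals differed 1.12-fold (0.944 to 1.33).

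PTBP2 was compared between Rosa-PTBP1 and WT cortex to ask whether its contacts differ where FLAG-PTBP1 is also made. Because Nrg3 was chosen partly for its fullness in PTBP2 WT, which favours a lower value in the other library, every Nrg3 value and every ratio to Nrg3 in this comparison is a description and supports nothing. Nrg3 held 191 sites in PTBP2 Rosa-PTBP1 against 367 in PTBP2 WT, a share 1.58-fold lower (log2 -0.66, -0.92 to -0.41). On chromosomes filled in both libraries the value was log2 -1.20, and from stacked sites -0.040. Erbb4 held 95 sites against 87, a share 1.32-fold higher (log2 0.41, -0.03 to 0.84), which became log2 -0.13 on filled chromosomes, so its direction depends on the denominator. The ratio of Erbb4 to Nrg3 was 3.01-fold higher in PTBP2 Rosa-PTBP1 from intervals (2.59 to 3.49) and 2.10-fold higher from sites (1.47 to 2.99).

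The ratio was also higher within each run, although the runs are parts of the same libraries and not replicates. In XA041 Erbb4 had 250 intervals and Nrg3 603 in PTBP2 Rosa-PTBP1, against 137 and 1008 in PTBP2 WT, a ratio 3.05-fold higher. In XB028 they had 192 and 456 against 351 and 2510, a ratio 3.01-fold higher. Nrg3 by share of sites was less even, at log2 -0.86 in XA041 and -0.0097 in XB028, and Erbb4 at 0.48 and 0.98. PTBP2 Rosa-PTBP1 held less than a full set of chromosomes and was the shallower library, and its Erbb4 to Nrg3 ratio of 41.7 per 100 was near the 46.3 and 42.6 of FLAG WT.

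Genome-wide 2.02% of 347 windows were at least 2-fold higher in PTBP2 Rosa-PTBP1 and 29.1% at least 2-fold lower. On filled chromosomes these shares were 1.08% and 40.4% of 277. In Nrg3 0 of 8 windows were higher and 2 lower (5 on filled chromosomes), from 39.4 to 39.5 Mb (7 sites against 23, 2.71-fold lower) and from 40 to 40.1 Mb (23 against 60, 2.15-fold lower). The highest were from 39.6 to 39.7 Mb (22 against 18, 1.48-fold) and from 39.7 to 39.8 Mb (21 against 25, 1.02-fold). In Erbb4 1 of 4 windows was higher under either denominator, from 68.5 to 68.6 Mb (15 against 5, 3.64-fold, log2 interval 0.33 to 3.68), and 0 were lower. The others ranged from 1.05-fold lower from 68.9 to 69 Mb (18 against 23), through 1.12-fold higher from 69 to 69.1 Mb (25 against 27), to 1.64-fold higher from 69.1 to 69.2 Mb (23 against 17).

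In Rosa-PTBP1 cortex FLAG-PTBP1 was set beside PTBP2 from the same genotype. Nrg3 held 454 sites for FLAG-PTBP1 against 191 for PTBP2, a share 1.25-fold higher (log2 0.32, 0.08 to 0.57). On filled chromosomes the value was 0.78, and from stacked sites it turned to -0.85, so the direction in Nrg3 depends on how sites are counted. Joining sites within 50 bases gave 0.25 with an interval that included no difference. Erbb4 held 55 against 95, a share 3.28-fold lower for FLAG-PTBP1 (log2 -1.72, -2.22 to -1.22, and -1.26 on filled chromosomes). The ratio of Erbb4 to Nrg3 was 7.75-fold lower for FLAG-PTBP1 from intervals (6.57 to 9.14) and 4.11-fold lower from sites (2.78 to 6.08). The PTBP2 Rosa-PTBP1 ratio in this comparison, 41.7 per 100 from intervals, was near the 46.3 and 42.6 of FLAG WT. Antibody and run also cannot be told apart between these libraries. Genome-wide 56.5% of 657 windows were at least 2-fold higher for FLAG-PTBP1 and 4.11% at least 2-fold lower (57.1% and 1.35% of 443 on filled chromosomes). In Nrg3 1 of 8 windows was higher (2 on filled chromosomes), from 39.4 to 39.5 Mb (31 sites against 7, 2.33-fold), and 0 were lower. In Erbb4 0 of 3 were higher and 2 lower under either denominator. These lay from 68.9 to 69 Mb (11 against 18, 3.11-fold lower) and from 69 to 69.1 Mb (16 against 25, 2.97-fold lower), and the third, from 69.1 to 69.2 Mb, was 1.68-fold lower (26 against 23). Nrg3 windows otherwise ran from 1.44-fold lower from 39.6 to 39.7 Mb (29 against 22) and 1.00-fold from 39.7 to 39.8 Mb (40 against 21) to 1.58-fold higher from 40 to 40.1 Mb (69 against 23).

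Intervals crowded toward the 5′ end of both transcripts. Each locus was cut into 5 equal segments from its 5′ limit, 40.29 Mb in Nrg3 and 69.15 Mb in Erbb4. The segment nearest the 5′ limit held 62.2% of Nrg3 intervals in FLAG loxP, 60.5% in FLAG Rosa-PTBP1, 49.5% in PTBP2 Rosa-PTBP1 and 58.1% in PTBP2 WT, against 42.4% and 59.6% in FLAG WT replicates 1 and 2. In Erbb4 it held 79.5%, 87.3%, 74.4% and 75.0%, against 42.9% and 55.0%. The PTBP libraries were thus more 5′-heavy than both background libraries in Erbb4, and more than replicate 1 alone in Nrg3. The segment of Nrg3 farthest from the 5′ limit held 0.20%, 0.42%, 0.28% and 0.57% of intervals, against 6.74% and 14.9%, the last being 7 intervals. The farthest segment of Erbb4 held 1.34%, 5.48%, 1.13% and 2.87%, against 16.5% and 0%, so there replicate 2 lay below the PTBP libraries. In Erbb4 the middle segment marked a difference within the PTBP libraries. It held 11.1% in FLAG loxP, 1.37% in FLAG Rosa-PTBP1, 19.2% in PTBP2 Rosa-PTBP1 and 16.4% in PTBP2 WT, against 13.8% and 20% in FLAG WT replicates 1 and 2.

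**Figure D3:**
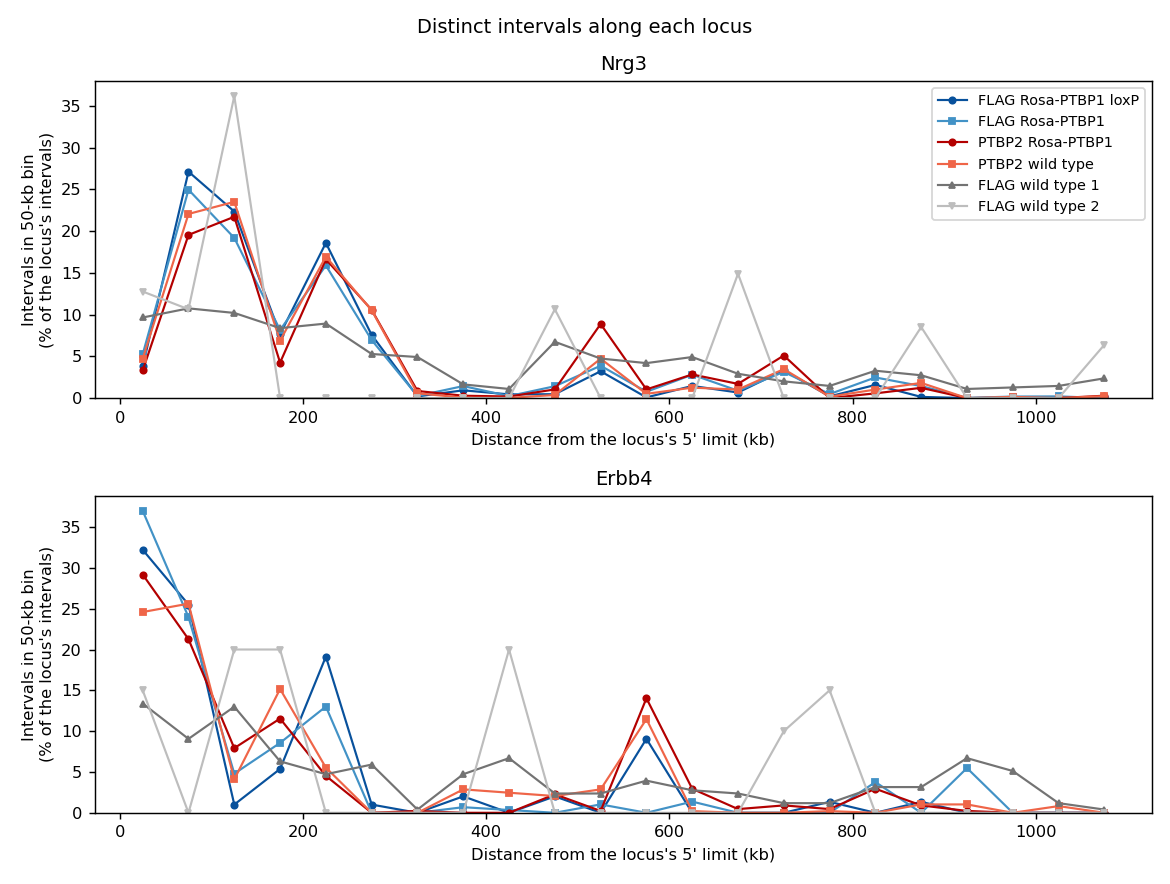
Distinct intervals in 50-kb bins along each locus, as a percentage of that library's intervals in the locus, against distance from the 5′ limit in kb; each line is a library. The 4 PTBP libraries peak in Nrg3 between 50 and 150 kb and again from 200 to 250 kb, while FLAG WT replicate 1 does not exceed 10.7% in any Nrg3 bin, and FLAG WT replicate 2 rests on 47 and 20 intervals.

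The fullest windows of Nrg3 were those from 40 to 40.3 Mb. By sites, the window from 40.1 to 40.2 Mb held 105 in FLAG loxP, 116 in FLAG Rosa-PTBP1, 51 in PTBP2 Rosa-PTBP1 and 114 in PTBP2 WT, against 82 and 4. Its neighbour from 40.2 to 40.3 Mb held 75, 96, 35 and 72, against 81 and 2, and that from 40 to 40.1 Mb 52, 69, 23 and 60, against 68 and 0. These were the 3 with most sites in each library except FLAG WT replicate 2, where windows held 4 or fewer. Among all windows the 40.1 Mb window ranked 16, 22, 5 and 2 by sites in the PTBP libraries, and 3 and 130 in FLAG WT replicates 1 and 2. A background library thus also ranked it near the top by sites. By distinct intervals it held 1779, 1792, 322 and 1263, against 105 and 22, and ranked 9, 18, 18 and 6, against 6 and 79. The rank of this window therefore did not separate FLAG WT replicate 1 from the PTBP libraries by either count.

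In Erbb4 the 3 windows from 68.9 to 69.2 Mb led in each PTBP library. In FLAG WT replicate 1 that from 68.7 to 68.8 Mb tied at 26 sites with 68.9 to 69 Mb, and in replicate 2 windows held 3 sites or fewer. The window from 69.1 to 69.2 Mb held 24 sites in FLAG loxP, 26 in FLAG Rosa-PTBP1, 23 in PTBP2 Rosa-PTBP1 and 17 in PTBP2 WT, against 30 and 3. That from 69 to 69.1 Mb held 18, 16, 25 and 27, against 49 and 2. Inside the locus alone, the 50 kb nearest the 5′ limit held 32.2%, 37.0%, 29.2% and 24.6% of Erbb4 intervals in the PTBP libraries, against 13.4% and 15.0%.

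Merging the intervals of all 6 libraries gave 1039 regions in Nrg3 and 422 in Erbb4, and a region was called occupied in a library at 5 or more distinct intervals. In Nrg3 219 regions were occupied in FLAG loxP, 261 in FLAG Rosa-PTBP1, 50 in PTBP2 Rosa-PTBP1 and 189 in PTBP2 WT, against 1 and 5 in FLAG WT. In Erbb4 these were 30, 27, 22 and 30, against 0 and 0. Regions occupied in all 4 PTBP libraries numbered 41 of the 400 occupied in any of them in Nrg3, and 5 of 78 in Erbb4. Without the shallow PTBP2 Rosa-PTBP1 library, 95 regions in Nrg3 and 5 in Erbb4 were occupied in the other 3. The same counts were not made over the genome, so these are not read as high or low. Those of Nrg3 also involve the PTBP2 WT signal that the rule used.

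Sharing of occupied regions was counted between pairs of libraries, beside the same over all 168274 regions of the genome. Of regions occupied in FLAG Rosa-PTBP1, PTBP2 WT also occupied 116 of 261 in Nrg3 (44.4%) and 6 of 27 in Erbb4 (22.2%), against 21.8% of 22695 genome-wide. From the PTBP2 WT side these were 61.4% of 189 and 20% of 30, against 56.5% of 8738. In Erbb4 the share was thus near the genome-wide share from the FLAG Rosa-PTBP1 side and below it from the PTBP2 WT side. Both rest on the same 6 shared regions. The Nrg3 counts involve the PTBP2 WT signal that the rule used. Between FLAG loxP and FLAG Rosa-PTBP1, 140 regions were shared in Nrg3 (63.9% of 219 and 53.6% of 261), and 6 in Erbb4 (20% of 30 and 22.2% of 27), against 53.1% and 37.8% genome-wide. In Erbb4 the FLAG-PTBP1 libraries therefore shared no more regions with each other than FLAG Rosa-PTBP1 shared with PTBP2 WT. Between PTBP2 Rosa-PTBP1 and PTBP2 WT, 46 were shared in Nrg3 (92.0% of 50 and 24.3% of 189) and 14 in Erbb4 (63.6% of 22 and 46.7% of 30), against 62.2% and 18.9% genome-wide. Erbb4 had 6 regions occupied in both PTBP2 libraries and neither FLAG-PTBP1 library, and 1 the other way round. Nrg3 had 3 and 45. Such regions were not counted over the genome, so neither pattern is read as particular to its gene. Genome-wide, FLAG loxP and FLAG Rosa-PTBP1 occupied 16180 and 22695 regions, against 2662 in PTBP2 Rosa-PTBP1 and 8738 in PTBP2 WT. The genome-wide shares include the 7 chromosomes nearly empty in PTBP2 Rosa-PTBP1 and the 1 in FLAG Rosa-PTBP1. PTBP2 WT regions on those 7 could hardly be shared with PTBP2 Rosa-PTBP1, so the 18.9% is a low yardstick for both loci. Shares on filled chromosomes were not counted, and the part of depth was not tested.

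The 5 fullest regions of each locus, by the shares of intervals summed over the PTBP libraries, held between 19.7% and 25.4% of Nrg3 intervals and between 29.8% and 37.8% of Erbb4 intervals in each PTBP library. In FLAG WT replicates 1 and 2 they held 12 and 10 intervals in Nrg3 and 0 and 0 in Erbb4. No mm9 gene model was used here, so exons and introns are not assigned, and no mm9 genome was at hand, so no sequence is shown.

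The fullest Nrg3 region ran from 40172251 to 40173884 on chromosome 14, 1634 bases long and 116.9 kb from the 5′ limit. It held 452 intervals in FLAG loxP, 408 in FLAG Rosa-PTBP1, 101 in PTBP2 Rosa-PTBP1 and 318 in PTBP2 WT, against 1 and 10. As shares of the intervals in Nrg3 these were 9.14%, 7.53%, 9.54% and 9.04%. As the rule used PTBP2 WT in Nrg3, these shares are a description. It was also the region with most FLAG WT intervals, and held 21.3% of the 47 in replicate 2, the library from the FLAG-PTBP1 run. Of those 47 intervals, 2 had the same start and end as an interval listed in FLAG Rosa-PTBP1. The region was bound along its length: in FLAG loxP and FLAG Rosa-PTBP1 its deepest base was covered by 25 and 21 intervals, 5.53% and 5.15% of those in it.

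**Figure D4:**
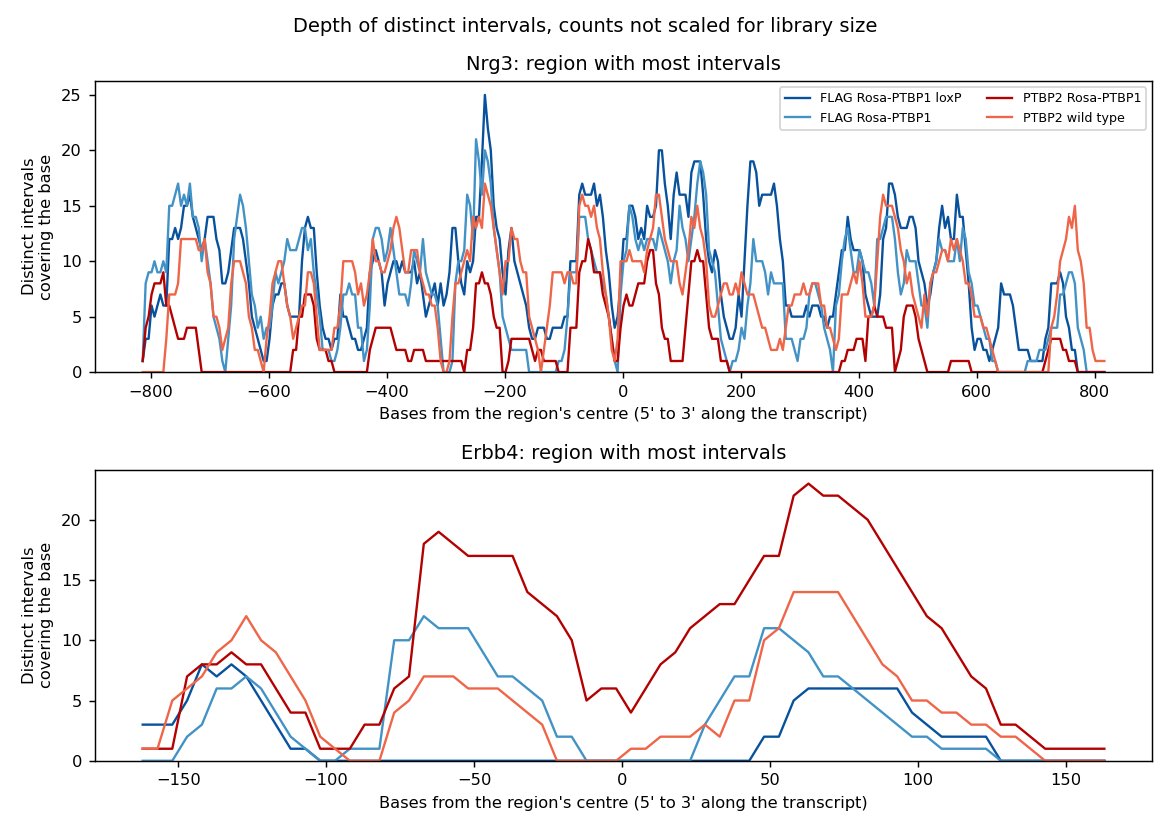
Number of distinct intervals covering each base, sampled every 5 bases, in the fullest region of each locus, against distance from the region's centre in the direction of transcription; lines are the 4 PTBP libraries and counts are not scaled for library size. Nrg3 shows many peaks over 1634 bases, and Erbb4 3 groups of intervals over 328 bases, the middle of them listed at 0 in FLAG loxP.

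A pair of neighbouring Nrg3 regions, 62 bases apart, differed between the PTBP2 libraries. Between 40200185 and 40201157 there were 304 intervals in FLAG loxP, 281 in FLAG Rosa-PTBP1, 14 in PTBP2 Rosa-PTBP1 and 157 in PTBP2 WT, against 3 and 0 in FLAG WT. Between 40201220 and 40201759 there were 156, 133, 71 and 117, against 3 and 0. As shares of Nrg3 intervals, the region from 40200185 made up 1.32% in PTBP2 Rosa-PTBP1 and 4.46% in PTBP2 WT, and its neighbour 6.70% and 3.33%. PTBP2 Rosa-PTBP1 was alone among the PTBP libraries in holding more intervals in the region from 40201220 than in that from 40200185.

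The values from XA041 and XB028 had the same direction. These runs are parts of the same library of each genotype, so they are not replicates. As the rule used PTBP2 WT in Nrg3, the difference remains a description. In XA041 the region from 40200185 held 5 of 603 Nrg3 intervals in PTBP2 Rosa-PTBP1 (0.829%) and 39 of 1008 in PTBP2 WT (3.87%), and its neighbour 37 (6.14%) and 35 (3.47%). In XB028 these were 9 of 456 (1.97%) and 118 of 2510 (4.70%), and 34 (7.46%) and 82 (3.27%). The lists hold reads the authors kept as significant, so reads they left out cannot be told apart from absence. In the region from 40201220, the deepest base lay at 40201434 in FLAG Rosa-PTBP1, 40201433 in PTBP2 Rosa-PTBP1 and 40201436 in PTBP2 WT, and at 40201515 in FLAG loxP.

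The other Nrg3 regions among the 5 varied less. That from 40057579 to 40058455, 232.0 kb from the 5′ limit, held 157 intervals in FLAG loxP, 140 in FLAG Rosa-PTBP1, 37 in PTBP2 Rosa-PTBP1 and 101 in PTBP2 WT, against 4 and 0. Its share of Nrg3 intervals ranged from 2.58% to 3.49% in the PTBP libraries. That from 39997511 to 39998275 held 103, 108, 46 and 124, against 1 and 0, with 2.08% and 1.99% in the FLAG-PTBP1 libraries and 4.34% and 3.52% in the PTBP2 libraries.

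The fullest Erbb4 region lay 23.1 kb from the 5′ limit, from 69126774 to 69127101 on chromosome 1. It held 15 intervals in FLAG loxP, 30 in FLAG Rosa-PTBP1, 63 in PTBP2 Rosa-PTBP1 and 35 in PTBP2 WT, and was listed at 0 in both FLAG WT libraries. As shares of Erbb4 intervals these were 5.03%, 10.3%, 14.3% and 7.17%. In PTBP2 Rosa-PTBP1 and PTBP2 WT the share was 11.6% and 5.84% in XA041, and 17.7% and 7.69% in XB028. Its neighbour from 69126513 to 69126757 held 17, 6, 18 and 20 intervals, and FLAG loxP was the higher of the FLAG-PTBP1 libraries there.

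A region in the middle of Erbb4 separated FLAG Rosa-PTBP1 from the other PTBP libraries. From 68588558 to 68588779, 561.3 kb from the 5′ limit, there were 22 intervals in FLAG loxP, 39 in PTBP2 Rosa-PTBP1 and 41 in PTBP2 WT, while FLAG Rosa-PTBP1 and both FLAG WT libraries were listed at 0. These made up 7.38%, 8.82% and 8.40% of the Erbb4 intervals of the libraries that held it. FLAG Rosa-PTBP1 was the deepest library, with 351602 distinct intervals, but in Erbb4 it held 292 against 298 in FLAG loxP, from the same run. Each was 1 library, and a region listed at 0 may still have held reads below the threshold. The cause of this difference was not tested. The deepest base lay at 68588617 in FLAG loxP, 68588623 in PTBP2 Rosa-PTBP1 and 68588622 in PTBP2 WT.

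The remaining Erbb4 regions were held by all 4 PTBP libraries. That from 69075929 to 69076160, 74.0 kb from the 5′ limit, held 14 intervals in FLAG loxP, 27 in FLAG Rosa-PTBP1, 30 in PTBP2 Rosa-PTBP1 and 40 in PTBP2 WT. Its deepest base lay at 69076005, 69076003, 69076005 and 69076008 in the same order, within 5 bases in libraries made with different antibodies. That from 68943574 to 68943726 held 22, 24, 17 and 14 intervals, which is 7.38% and 8.22% of Erbb4 intervals in the FLAG-PTBP1 libraries and 3.85% and 2.87% in the PTBP2 libraries. Here the deepest base varied more, at 68943682, 68943615, 68943693 and 68943693. In the fullest Erbb4 region it lay at 69127069, 69127001, 69126870 and 69126862, and in its neighbour from 69126513 at 69126635, 69126629, 69126629 and 69126633. The Erbb4 region with most FLAG WT intervals, from 68162693 to 68162732, held 4 in replicate 1, all ending at 68162732, and was listed at 0 in the other libraries.

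**Figure D5:**
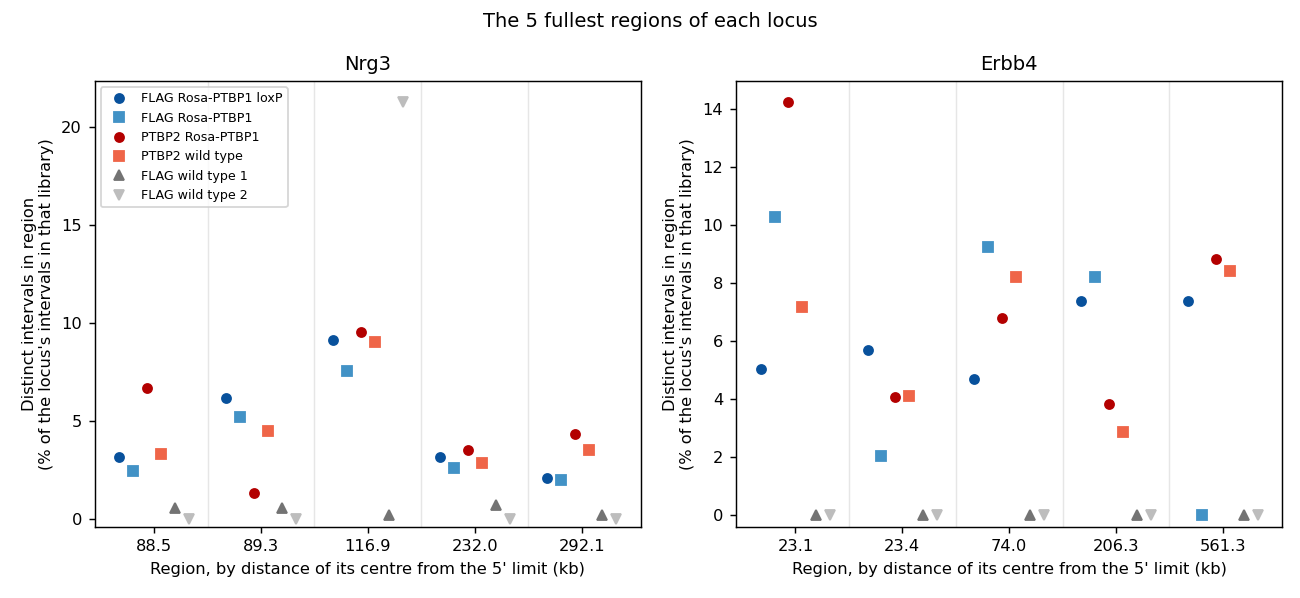
Share of a locus's distinct intervals held by each of its 5 fullest regions, per library, with regions ordered by distance of their centre from the 5′ limit in kb. In Nrg3 PTBP2 Rosa-PTBP1 is high at 88.5 kb (6.70%) and low at 89.3 kb (1.32%), and in Erbb4 FLAG Rosa-PTBP1 is at 0 at 561.3 kb where FLAG loxP holds 7.38%.

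Across the 12 windows of 100 kb that touch each locus, the Spearman correlations of interval numbers described how alike the libraries were. They shared gene, window order and mappability. In Nrg3 they lay between 0.94 and 0.98 for the 6 pairs of PTBP libraries, and in Erbb4 between 0.70 and 0.94. FLAG WT replicate 1 correlated with the PTBP libraries at 0.87 to 0.96 in Nrg3, about as high, and at 0.47 to 0.87 in Erbb4. FLAG WT replicate 2 correlated with them at 0.22 to 0.35 in Nrg3 and 0.52 to 0.65 in Erbb4. It rests on 47 and 20 intervals. Set against replicate 1, but not replicate 2, the broad distribution along Nrg3 was thus not particular to the PTBP libraries.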

How the data were processed

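The deposited files list genome start and end coordinates of read intervals (unit: other), with a strand and read name but no score or count. Per the file headers, 3 lists hold significant CLIP reads and the other 3 combined data, and the deposited names of all of them mention an FDR, with caller and level not given in the sources used here. Reads were aligned with Bowtie to mm9, per the submitters' processing notes. A list may omit reads that fell below the threshold, so a region listed at 0 may still have held some.

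Lines were collapsed to distinct intervals and merged into sites within each library (Python 3.11, pandas 2.3.3). Locus values are shares of a library's sites or intervals, with exact Clopper-Pearson 95% intervals. Ratios of shares carry exact conditional 95% intervals (scipy 1.17.1), which cover counting error only. The FLAG WT libraries were summed. With 1 library in every other group no test was made. Window calls used 100-kb windows of 1 strand with 20 or more sites in both arms and a 2-fold difference in share; the code was tested on simulated data. A chromosome counted as empty when its share of sites was below 0.5 times the median of the other libraries. Named windows were the 3 with most sites per library and the 2 highest and 2 lowest per comparison; named regions were the 5 fullest per locus and the fullest in FLAG WT. Genes of the ErbB pathway other than this pair were not analysed here, since no mm9 annotation was at hand. Members, lists and rules were chosen with earlier results of these data known.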

Additional observations from a re-analysis of the deposited data

How the results depend on the processing

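Values below are log2 ratios of shares, as in the report, unless named otherwise. Of 82 recomputed log2 ratios, 49 stayed within the counting interval of the reported value. FLAG Rosa-PTBP1 over FLAG WT in Nrg3 became 1.57 from distinct intervals, 1.33 from file lines, 1.19 from stacked sites, 3.20 in run WA047 and 2.00 with the mean of the replicates' log2 shares, an alternative added after the data were seen; without each FLAG WT replicate it ranged from 0.81 to 3.20. In Erbb4 it became -1.72 from lines, -1.54 with the locus narrowed by 50 kb at each end and -0.20 with the mean, and turned to 0.80 in run WA047; without each replicate it ranged from -1.21 to 0.80. PTBP2 WT over FLAG WT in Nrg3 became 2.13 from intervals, 1.81 from lines, 2.09 from stacked sites and 2.34 with the mean, and ranged from 1.15 to 3.54 without each replicate. In Erbb4 it became 1.10 with the mean and ranged from 0.10 to 2.11. From stacked sites Erbb4 gave no value against FLAG WT, which had 0. FLAG loxP over FLAG Rosa-PTBP1 in Nrg3 became 0.27 from intervals and 0.25 from lines. PTBP2 Rosa-PTBP1 over PTBP2 WT in Nrg3 became -0.040 from stacked sites, -1.20 on filled chromosomes and -0.0097 in run XB028. In Erbb4 it became 0.92 from intervals, 0.85 from lines, 1.18 from stacked sites, -0.13 on filled chromosomes and 0.98 in run XB028. FLAG Rosa-PTBP1 over PTBP2 Rosa-PTBP1 in Nrg3 became -0.85 from stacked sites and 0.78 on filled chromosomes, and in Erbb4 -2.84 from intervals, -2.68 from lines and -2.60 from stacked sites. Where the setting changed the unit or the libraries, the cause was not tested.

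Regions occupied in all 4 PTBP libraries became 66 in Nrg3 at 1 or more intervals, 22 at 10 or more and 95 without PTBP2 Rosa-PTBP1, and 3 in Erbb4 at 10 or more. The share of windows called moved with its threshold. With 10 or more, or 40 or more, sites, higher and lower windows of FLAG Rosa-PTBP1 over FLAG WT became 18.6% and 39.0%, or 64.2% and 3.0%, and those of PTBP2 WT over FLAG WT 14.5% and 35.1%, or 51.7% and 2.49%. At 3-fold these were 19.6% and 10.1%, and 12.9% and 12.5%. FLAG loxP over FLAG Rosa-PTBP1 had 9.55% higher with 10 or more sites, 5.63% lower with 40 or more, 3.48% higher and 4.65% lower at 3-fold, and 4.08% higher on filled chromosomes. PTBP2 Rosa-PTBP1 over PTBP2 WT had 14.2% higher with 10 or more, 0% with 40 or more, 0.576% at 3-fold, 6.63% from intervals and 1.08% on filled chromosomes. FLAG Rosa-PTBP1 over PTBP2 Rosa-PTBP1 had 12.9% lower with 10 or more, 0.727% with 40 or more, 2.28% at 3-fold, 10.2% from intervals and 1.35% on filled chromosomes. No paired analysis was possible because FLAG WT alone carries replicate numbers. Depth limits what can be seen in Erbb4, where FLAG WT replicate 2 held 20 intervals.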

Other observations

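Minus-strand intervals continued past the 5′ limit used for Erbb4. In the next 50 kb there were 53 in FLAG loxP, 33 in FLAG Rosa-PTBP1, 6 in PTBP2 Rosa-PTBP1 and 5 in PTBP2 WT, against 9 and 12 in FLAG WT replicates 1 and 2. These lie outside the locus and enter only the window from 69.1 to 69.2 Mb. As percentages of each library's distinct intervals these were 0.0199, 0.00939, 0.00806 and 0.00322, against 0.0102 and 0.0450. FLAG WT replicate 2 was thus above every PTBP library.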
